A study of Rattus norvegicus with 12 samples.

Results

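The caspases and calpains described here are 8 rat genes, 6 caspases (Casp1, Casp2, Casp4, Casp6, Casp8 and Casp9) and 2 calpains (Capn1 and Capn2), out of 15154 named genes measured on the arrays. Their probes were found through the RefSeq accession that the array gives for each probe, and where a gene had several, the probe with the highest mean log2 signal over the 12 arrays stands for it. All 8 genes had a probe. In RefSeq's annotation of GRCr8, Casp1 and Casp4 lie side by side on chromosome 8, Capn1 on chromosome 1 (212705219 to 212736134), Casp6 on chromosome 2 (221140287 to 221152727), Casp2 on chromosome 4 (72116265 to 72134023), Casp9 on chromosome 5 (159391907 to 159410341), Casp8 on chromosome 9 (67747109 to 67806699) and Capn2 on chromosome 13 (96681902 to 96732625). The cells were primary hippocampal neurons from E18 embryos of Wistar rats, kept in culture for 14 to 15 days. In the OGD groups the cultures were exposed to oxygen-glucose deprivation, an in vitro model of global ischemia in which the buffer holds sucrose in place of glucose and the chamber holds no oxygen. The Ctrl groups were kept in the same kind of buffer with 25 mM glucose, in air and CO2. All cultures then went back to conditioned medium, and RNA was collected after 7 h or 24 h of recovery from 3 independent cultures per group, which gave the groups Ctrl 7h, OGD 7h, Ctrl 24h and OGD 24h. Per the study's methods a minority of the cells in these cultures is glial.

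Caspases are cysteine proteases made as inactive precursors. Initiator caspases such as caspase-8, caspase-9 and caspase-2 are activated on adaptor complexes and then cut the executioner caspases, which dismantle the cell, while inflammatory caspases such as caspase-1 process cytokines and open membrane pores. Calpains are cysteine proteases activated by calcium, and in neurons they are known for cutting spectrin after excitotoxic injury. Because both families are switched on at the protein level, an mRNA level says how much transcript is present and not how active the protease is. In a bulk culture, fewer cells of a type and less RNA per cell cannot be told apart.

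The values are log2 signals relative to the median probe of each array, so 0 is the level of the median probe. Between 78.3% and 87.1% of the spots of an array were well above background, and the median signal was lowest on the OGD replicate 1 array of each time. A slide held the Ctrl and the OGD array that share a time and a number (6 slides in all), and the differences within these 3 slides per time are given beside the fitted values. On 3 of the slides (7 h replicate 3, 24 h replicates 2 and 3) both arrays were scanned together, and on the other 3 the OGD array was scanned first. A gene is called here when its unadjusted p in limma is under 0.05 and its fold at least 2. At an adjusted p under 0.05 limma called 0 of the 15154 genes at either time, so each call below is one that failed the correction for all probes; at an unadjusted p under 0.05 there were 1811 genes at 7 h and 2009 at 24 h.

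At 7 h after OGD, Casp8 was called lower and none of the members was called higher. At 24 h, Casp1 and Capn1 were called higher and none lower. Casp8, Casp1 and Capn1 each had 1 probe with 1 spot per array, so no call could be checked on another probe. The 1 of 8 members called at 7 h is 12.5%, against 3.63% of all named genes (1.56% higher and 2.07% lower). The 2 of 8 called at 24 h are 25%, against 5.11% of all named genes (2.74% higher and 2.38% lower). With 8 genes, 1 call is a share of 12.5%, so these shares say little beyond the named genes. The background rested on single arrays too. The 775 calls at 24 h became 421 without Ctrl 24h replicate 1, 368 without OGD 24h replicate 1 (lower ones 360 to 90), 1301 without OGD 24h replicate 2 and 1515 without OGD 24h replicate 3, and the 550 at 7 h became 353 without OGD 7h replicate 1. Within the slides scanned together the called differences were -1.28 for Casp8, 1.12 and 1.82 for Casp1, and 1.16 and 0.44 for Capn1. The median log2 fold change of the members was 0.06 at 7 h and 0.24 at 24 h, beside medians of -0.11 and -0.03 over all named genes. The Ctrl and OGD arrays did not overlap for 2 members at 7 h (Casp8 and Casp9) and for 3 at 24 h (Casp1, Casp6 and Capn2), where 25.5% (7.6% higher, 17.9% lower) and 16.6% (9.07% higher, 7.56% lower) of all named genes did not overlap.

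**Figure D1:**
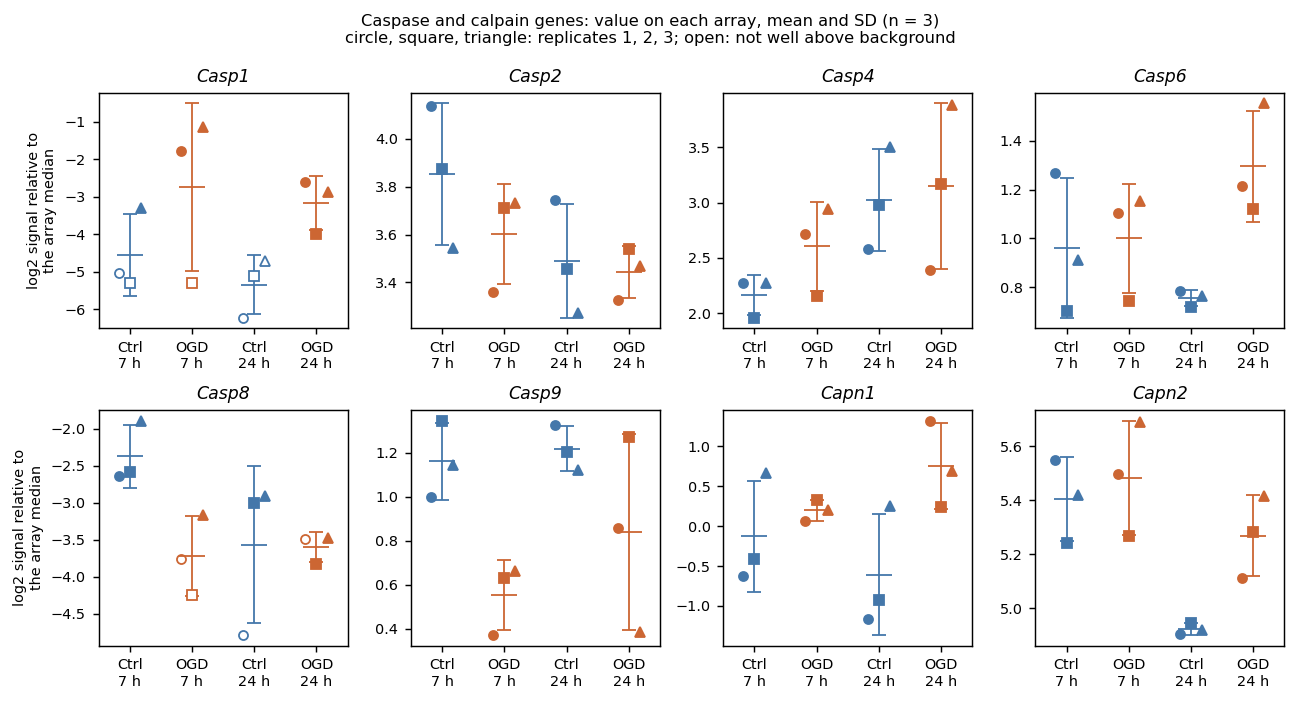
Log2 signal relative to the array median (y axis) of the 8 genes in the 4 groups (x axis). Each symbol is 1 array, with the mean and SD of 3 arrays as a bar and whiskers, and open symbols are not well above background; the y axis differs between panels. Casp8 is lower on all 3 OGD arrays than on the Ctrl arrays at 7 h, and Casp1 is higher on all 3 OGD arrays at 24 h, where no Ctrl array is well above background.

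**Figure D2:**
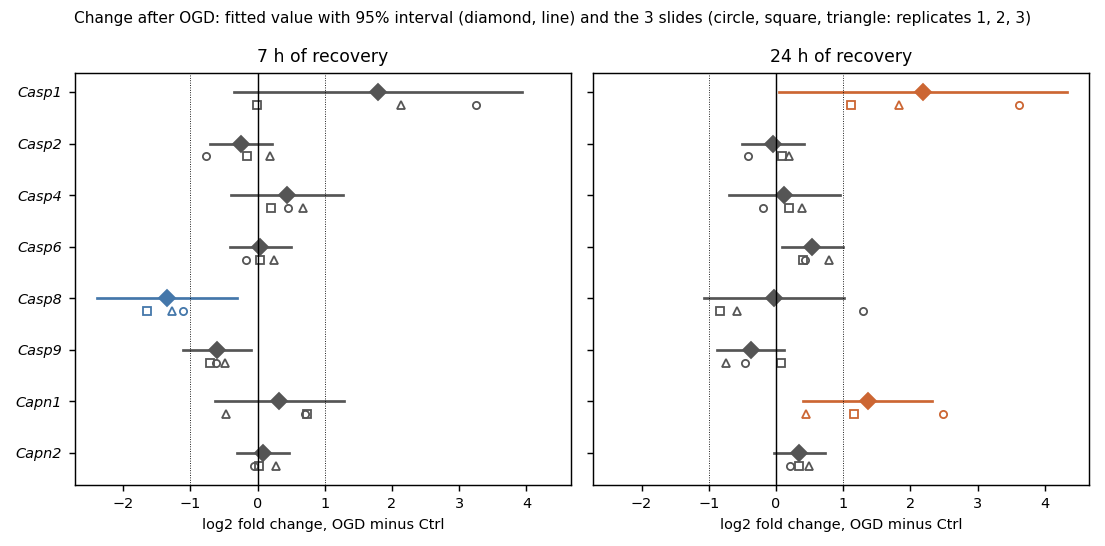
Log2 fold change of OGD against Ctrl (x axis) for the 8 genes (y axis) at 7 h and 24 h. Diamonds and lines are the limma estimate with its 95% interval, and the small symbols are the differences within each of the 3 slides; colored genes are called higher (orange) or lower (blue), and dotted lines mark a fold of 2. The lines of Casp8 at 7 h and of Casp1, Casp6 and Capn1 at 24 h lie on one side of 0, as does that of Casp9 at 7 h.

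Among the inflammatory caspases, Casp1, which encodes the protease that matures interleukin-1β in the inflammasome, was near the limit of detection. At 24 h its log2 values were -6.23, -5.11 and -4.71 on the Ctrl arrays of replicates 1, 2 and 3, and -2.62, -3.99 and -2.88 on the OGD arrays. Every OGD array was above every Ctrl array, and the OGD arrays were higher by 3.61, 1.12 and 1.82 within the 3 slides. No Ctrl array was well above background at this time, whereas all 3 OGD arrays were. The fold of Casp1 is therefore given as a lower bound of 2.33 (limma unadjusted p = 0.047, adjusted p = 0.359, n = 3 per group). The bound sets the mean of the OGD arrays against the lowest signal that counts as well above background on each Ctrl array. It reflects the detection limit, and not the spread between arrays or the choice of processing. The limma interval of the log2 difference of 2.18 ran from 0.04 to 4.33. With spike-in scaling the difference was 1.16 (limma unadjusted p = 0.301). With normexp background correction it was 0.72 (limma unadjusted p = 0.101), and neither was called.

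At 7 h the Casp1 values were -5.05, -5.30 and -3.29 in Ctrl and -1.79, -5.31 and -1.15 in OGD. The OGD arrays of replicates 1 and 3 were the highest of the 6, while that of replicate 2 was as low as the lowest Ctrl array. The difference of 1.80 ± 0.97 (SE) was not called (limma unadjusted p = 0.092, adjusted p = 0.492), and 1 of 3 Ctrl arrays and 2 of 3 OGD arrays were well above background. The Casp1 calls rested on single arrays. The 24 h call was lost without Ctrl 24h replicate 1 (difference 1.74, limma unadjusted p = 0.144), Ctrl 24h replicate 2 (2.30, unadjusted p = 0.070), OGD 24h replicate 1 (1.91, unadjusted p = 0.122) or OGD 24h replicate 3 (2.04, unadjusted p = 0.105), and also without Ctrl 7h replicate 1 (unadjusted p = 0.0564) or Ctrl 7h replicate 2 (unadjusted p = 0.0523), which enter only the estimate of the spread. At 7 h Casp1 was called higher once Ctrl 7h replicate 3 (2.42, limma unadjusted p = 0.0421) or OGD 7h replicate 2 (3.07, limma unadjusted p = 0.0011) was left out, and also with the slide as a replicate block (1.80, limma unadjusted p = 0.036).

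The Casp1 promoter is shown because Casp1 is one of the called members and because a letter pattern of interferon regulatory factors lies close to its start. The sequence runs from 250 bases before to 50 bases after the start given by RefSeq (GRCr8, chr8:10872580-10872879, plus strand), a start inside the span annotated for the gene. The capitals mark a match to the element of interferon regulatory factors, 2 copies of GAAA separated by 2 bases, read on the minus strand as GAAACTGAAA.

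Casp1 promoter: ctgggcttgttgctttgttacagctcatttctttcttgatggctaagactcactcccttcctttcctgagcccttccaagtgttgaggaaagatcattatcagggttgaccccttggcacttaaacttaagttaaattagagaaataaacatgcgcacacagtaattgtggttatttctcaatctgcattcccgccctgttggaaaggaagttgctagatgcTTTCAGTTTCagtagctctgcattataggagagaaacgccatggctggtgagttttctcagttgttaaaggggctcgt

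The match ends 18 bases before the start, and 3.77% of the 27457 promoters of the same length hold the pattern on either strand. A promoter sequence was at hand for 5 of the 8 members (Casp1, Casp2, Casp6, Casp9 and Capn2), and of these Casp1 alone held the pattern. The AP-1 pattern TGANTCA occurred in Capn2 alone of the 5 (7.33% of all promoters). The Sp1 pattern GGGCGG occurred in Casp1, Casp2, Casp6 and Casp9 (34.9% of all promoters), with 3 matches in Casp9, and TATAAA occurred in none of the 5 (14.3%). These 4 patterns were searched on both strands, gave no overlapping matches and were chosen after the values were seen; a match is a description of the sequence only.

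Casp4, the sensor of intracellular lipopolysaccharide (known as caspase-11 in rodents), lies directly beside Casp1 on chromosome 8. In GRCr8, Casp1 spans 10746338 to 10882295, Casp4 10883817 to 10919978 and Casp12 10927188 to 10954442. Neither neighbour was called at either time. Casp4 values were 2.27, 1.96 and 2.27 in Ctrl and 2.72, 2.15 and 2.94 in OGD at 7 h, a difference of 0.44 ± 0.37 (SE) with a 95% interval of -0.39 to 1.27 (limma adjusted p = 0.662). At 24 h they were 2.58, 2.98 and 3.51 in Ctrl and 2.39, 3.17 and 3.89 in OGD, a difference of 0.12 ± 0.37 (95% interval -0.70 to 0.95, limma adjusted p = 0.926). The Ctrl and OGD arrays overlapped at both times. Casp12, a caspase linked to endoplasmic reticulum stress in rodents, had differences of 0.94 at 7 h and 0.91 at 24 h, higher on 3 of 3 slides each time (limma adjusted p = 0.521 at 7 h and adjusted p = 0.484 at 24 h); it was singled out after its values were seen, for its place in the genome. With the slide as a replicate block the same Casp12 differences had unadjusted limma p-values of 0.0014 and 0.0017, the lowest of the 25 alternatives. Over these alternatives the lowest adjusted limma p was 0.225 at 7 h and 0.366 at 24 h. Spike-in scaling gave Casp12 differences of 0.13 at 7 h and -0.12 at 24 h. Of the 3 Ctrl arrays at 7 h, 1 had Casp12 well above background.

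Among the initiator caspases, Casp8, which couples death receptors to apoptosis and holds back necroptosis, was called lower at 7 h. Its log2 values were -2.65, -2.59 and -1.89 in Ctrl and -3.76, -4.24 and -3.17 in OGD. Every OGD array was below every Ctrl array, by 1.11, 1.65 and 1.28 within the slides on the log2 scale, and 3 of 3 Ctrl arrays but only 1 of 3 OGD arrays were well above background. The fitted difference was -1.35 ± 0.47 (SE), 2.54-fold lower (limma unadjusted p = 0.016, adjusted p = 0.322, n = 3 per group). The call was lost without Ctrl 7h replicate 3 (-1.105, limma unadjusted p = 0.061) or without OGD 7h replicate 2 (-1.09, limma unadjusted p = 0.0652), and the direction turned with normexp background correction (0.25, limma unadjusted p = 0.544).

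At 24 h the Casp8 values were -4.79, -3.01 and -2.91 in Ctrl and -3.49, -3.83 and -3.48 in OGD. The lowest and the 2 highest of the 6 were Ctrl arrays, and 2 of 3 arrays of each group were well above background. The difference was -0.04 ± 0.47 (SE), with a 95% interval of -1.08 to 1.01 (limma adjusted p = 0.99998).

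Casp9, the caspase recruited by Apaf1 to the apoptosome, had 2 probes. On the brighter one the 7 h values were 1.00, 1.34 and 1.14 in Ctrl and 0.37, 0.63 and 0.66 in OGD. The groups did not overlap, and the difference of -0.61 ± 0.23 (SE), 1.52-fold, had a limma unadjusted p = 0.022 and an adjusted p = 0.348, short of the fold of 2 for a call. The other probe gave -0.88 (limma unadjusted p = 0.027, adjusted p = 0.361), also lower on 3 of 3 slides. At 24 h the values were 1.33, 1.20 and 1.12 in Ctrl and 0.86, 1.27 and 0.38 in OGD, and the groups overlapped because OGD replicate 2 stayed among the Ctrl arrays. That difference was -0.38 ± 0.23 on the brighter probe (limma adjusted p = 0.465) and -0.59 on the other (limma adjusted p = 0.454).

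Casp2 is an initiator linked to DNA damage. At 7 h its values were 4.13, 3.87 and 3.54 in Ctrl and 3.36, 3.71 and 3.73 in OGD, and at 24 h 3.74, 3.46 and 3.27 in Ctrl and 3.33, 3.54 and 3.47 in OGD. The Ctrl and OGD arrays overlapped at both times. The differences were -0.25 (95% interval -0.71 to 0.21, limma adjusted p = 0.653) and -0.05 (95% interval -0.51 to 0.42, limma adjusted p = 0.967). Casp2 had 3 probes, and the other 2 gave -0.02 and 0.38 at 7 h and -0.03 and 0.05 at 24 h, so the probes did not share a direction at 7 h.

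Casp6, an executioner caspase known for cutting lamin A and for axon degeneration, was close between conditions at 7 h, with values of 1.27, 0.70 and 0.91 in Ctrl and 1.103, 0.742 and 1.155 in OGD (difference 0.04, 95% interval -0.41 to 0.49). At 24 h the values were 0.78, 0.72 and 0.76 in Ctrl and 1.21, 1.12 and 1.55 in OGD. All 3 OGD arrays were above the 3 Ctrl arrays, which lay within 0.1 of each other. The difference of 0.54 ± 0.20 (SE), 1.45-fold, had a limma unadjusted p = 0.024 and an adjusted p = 0.314 and did not reach the fold for a call; under scaling to a spike-in probe it was -0.49.

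Capn1 encodes the large subunit of μ-calpain, the form active at micromolar calcium. At 7 h its values were -0.63, -0.41 and 0.67 in Ctrl and 0.07, 0.33 and 0.20 in OGD, with the OGD arrays between the Ctrl arrays (difference 0.32, 95% interval -0.64 to 1.29, limma adjusted p = 0.801). At 24 h the values were -1.16, -0.92 and 0.25 in Ctrl and 1.32, 0.24 and 0.70 in OGD. Ctrl replicate 3 was level with OGD replicate 2, so the groups overlapped, although OGD was higher within each slide by 2.48, 1.16 and 0.44. The fitted difference was 1.36 ± 0.44 (SE), 2.57-fold (limma unadjusted p = 0.010, adjusted p = 0.290, n = 3 per group). The methods' t-test on the 6 arrays of that time gave the same difference a p above 0.05, so no call, and without the slides of replicate 1 the difference was 0.80 (limma unadjusted p = 0.153).

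Capn2, the large subunit of m-calpain, was well above background on every array. The 7 h values were 5.55, 5.24 and 5.42 in Ctrl and 5.49, 5.27 and 5.69 in OGD, and the difference was 0.08 (95% interval -0.30 to 0.46, limma adjusted p = 0.868). At 24 h they were 4.90, 4.95 and 4.92 in Ctrl and 5.11, 5.28 and 5.41 in OGD, all 3 OGD arrays above the Ctrl arrays. The difference of 0.35 ± 0.17 (SE), 1.27-fold, had a limma adjusted p = 0.402, and the other Capn2 probe gave 0.45 (unadjusted p = 0.032, adjusted p = 0.331); under spike-in scaling the former was -0.68 and with normexp background correction -0.08.

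Of the partners of the calpains, Capns1, Cast and Sptan1 were not called at either time. Their Ctrl and OGD arrays did not overlap for Capns1 at 7 h and for Cast and Sptan1 at 24 h, and overlapped otherwise. Capns1, the small subunit that both calpains need, was lower within 3 of 3 slides at both times, by -0.40 (limma adjusted p = 0.457) and -0.32 (limma adjusted p = 0.475). Cast, the calpain inhibitor calpastatin, differed by 0.04 at 7 h (limma adjusted p = 0.947) and by 0.40 at 24 h (limma adjusted p = 0.411; -0.63 under spike-in scaling). Sptan1, the αII-spectrin cut by calpains, differed by -0.40 at 7 h (limma adjusted p = 0.650) and -0.69 at 24 h (limma adjusted p = 0.387), and at 24 h the slide of replicate 1 alone gave -1.70 while the others gave -0.08 and -0.29.

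Whether a member responded differently at the 2 recovery times was tested as an interaction. None of the 8 had an unadjusted limma p under 0.05, where 3.42% of all named genes did, and all 8 adjusted p-values were 0.99998. The lowest p was that of Casp8 (24 h minus 7 h: 1.31 ± 0.67, limma unadjusted p = 0.0759), followed by Casp6 (0.50 ± 0.29, limma unadjusted p = 0.112) and Capn1 (1.04 ± 0.62, limma unadjusted p = 0.121). No value is given for Casp1, which was not well above background on any Ctrl array at 24 h. A call at one time only is therefore not shown to differ between times. The Casp8 interaction passed p under 0.05 without OGD 7h replicate 3 (1.59, limma unadjusted p = 0.0463), Ctrl 24h replicate 2 (1.59, limma unadjusted p = 0.0455) or Ctrl 24h replicate 3 (1.64, limma unadjusted p = 0.0356), and that of Capn1 without Ctrl 24h replicate 3 (1.47, limma unadjusted p = 0.0238).

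Genes that work with the caspases and calpains were described from 7 lists of 64 genes, 56 of which had a named probe. At 7 h 2 of the 56 were called higher (3.57%) and 0 lower, beside 1.56% and 2.07% of all named genes, and 0 had an adjusted p under 0.05. At 24 h 3 were called higher (5.36%) and 0 lower, beside 2.74% and 2.38%. At an unadjusted limma p under 0.05 without a fold, 4 were higher and 2 lower at 7 h, and 8 were higher and 3 lower at 24 h. These are 10.7% and 19.6% of the 56, beside 12% and 13.3% of all named genes. The median log2 fold change over the 56 was -0.05 at 7 h and 0.08 at 24 h.

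**Figure D3:**
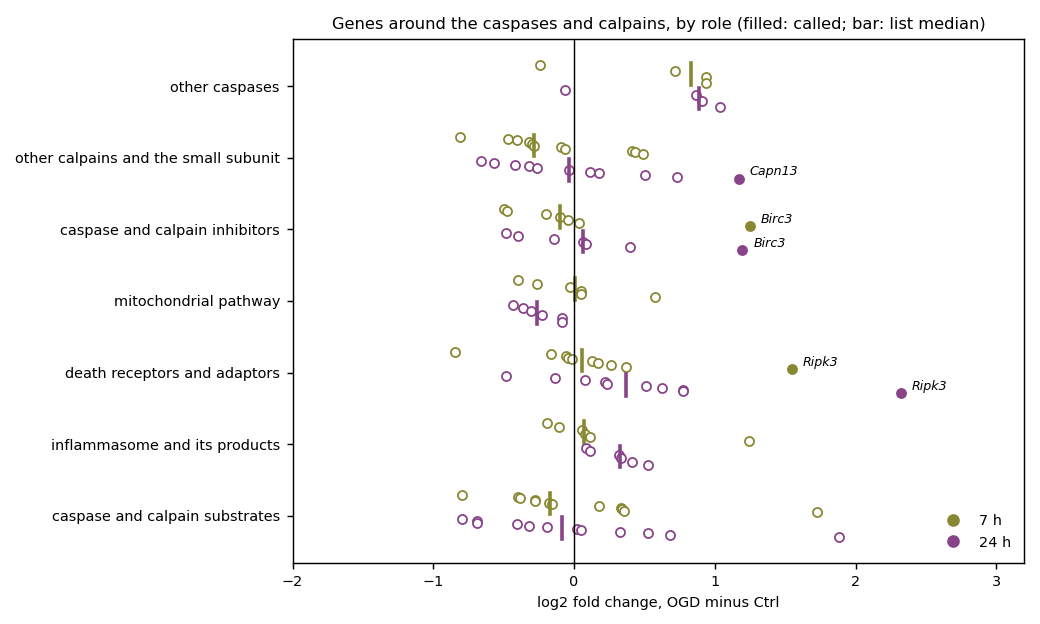
Log2 fold change of OGD against Ctrl (x axis) of 56 genes around the caspases and calpains, by role (y axis), at 7 h and 24 h. Each circle is 1 gene, filled where it is called, and the vertical bar is the median of the list. Ripk3 and Birc3 are called higher at both times and Capn13 at 24 h, and most other circles lie within 1 of 0.

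Of the 10 measured death receptors and adaptors, 1 was called at each time, Ripk3, the kinase that drives necroptosis and that caspase-8 is known to cleave. Ripk3 was 2.93-fold higher at 7 h (difference 1.55, limma unadjusted p = 0.016, adjusted p = 0.324) and 5.01-fold higher at 24 h (2.32, limma unadjusted p = 0.0014, adjusted p = 0.252). Its Ctrl and OGD arrays did not overlap at either time, and the 24 h slides gave 3.89, 1.60 and 1.48. The Ripk3 means were -0.12 in Ctrl and 1.43 in OGD at 7 h, and -2.20 and 0.12 at 24 h. Both were thus lower at 24 h, Ctrl by more. A difference of the response between the times is not shown (24 h minus 7 h: 0.77 ± 0.77 SE, limma unadjusted p = 0.337, adjusted p = 0.99998). The 7 h call was lost without Ctrl 7h replicate 1 (1.16, limma unadjusted p = 0.072) or Ctrl 7h replicate 2 (1.40, unadjusted p = 0.051), and also with normexp background correction (0.99), spike-in scaling (0.74), the methods' t-test and the slides of replicates 2 and 3 alone (1.27). The 24 h call was lost with spike-in scaling (1.30, limma unadjusted p = 0.247). Fadd, the adaptor of caspase-8, and Tnfrsf1a, the TNF receptor, were singled out after their values were seen. At 24 h they were higher on 3 of 3 slides with no overlap, by 0.77 (limma unadjusted p = 0.027, adjusted p = 0.318) and 0.51 (unadjusted p = 0.015, adjusted p = 0.295). Neither reached a fold of 2, and under spike-in scaling both were below 0. The Fadd slides gave 1.65, 0.65 and only 0.02. With each array left out in turn, the Fadd difference ran from 0.48 to 1.00 (limma unadjusted p up to 0.107).

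Of the 7 measured inhibitors, 1 was called at each time, Birc3, an inhibitor of apoptosis protein of the TNF receptor complex and a target of NF-κB. It was 2.38-fold higher at 7 h (1.25, limma unadjusted p = 0.036, adjusted p = 0.393, groups overlapping) and 2.29-fold higher at 24 h (1.20, limma unadjusted p = 0.043, adjusted p = 0.354, no overlap). The 7 h call was lost without Ctrl 7h replicate 1 (1.13), Ctrl 7h replicate 2 (1.05) or OGD 7h replicate 3 (0.55), with spike-in scaling (0.44), with normexp (0.74), in the methods' t-test, with limma on each time alone and on the slides of replicates 2 and 3 alone. The 24 h call was lost without any of Ctrl 24h replicates 1, 2 and 3 (1.24, 1.03 and 1.33), OGD 24h replicates 1 and 3 (1.08 and 1.09) or Ctrl 7h replicate 1 (1.20, unadjusted p = 0.054), and with quantile normalization (1.12), spike-in scaling (0.17), normexp (0.75) and the slides of replicates 2 and 3 alone (1.12). Xiap, which blocks caspase-9 and the executioners, differed by -0.20 and 0.09 (limma adjusted p = 0.731 at 7 h and adjusted p = 0.894 at 24 h). Cflar, which encodes the caspase-8 decoy FLIP, differed by -0.48 at both times (limma adjusted p = 0.510 at 7 h and adjusted p = 0.453 at 24 h).

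None of the 6 mitochondrial pathway genes was called. Apaf1, the scaffold that recruits caspase-9, was 0.58 higher at 7 h on 3 of 3 slides with no overlap (1.49-fold, limma unadjusted p = 0.015, adjusted p = 0.322) and -0.23 at 24 h (limma adjusted p = 0.610). Of the inflammasome genes, Pycard, the adaptor ASC that links sensors to caspase-1, differed by -0.19 and 0.34 (limma adjusted p = 0.846 at 7 h and adjusted p = 0.660 at 24 h). Nlrp3 was not well above background on any array, and Il1b, the main substrate of caspase-1, on 1 array of the 12 (OGD 7h).

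Among 11 other calpain genes, Capn13 was called higher at 24 h (1.17, 2.25-fold, limma unadjusted p = 0.033, adjusted p = 0.332), and 2 of its 3 Ctrl arrays were well above background. That call was lost without Ctrl 24h replicate 1 (0.82), Ctrl 24h replicate 3 (1.22, unadjusted p = 0.056) or OGD 24h replicate 1 (0.92), and with quantile normalization (0.91), spike-in scaling (0.15), normexp (0.60), the methods' t-test and the slides of replicates 2 and 3 alone (0.57). Capn8, Capn11 and Capn12 were not well above background on any array. Capn5, singled out after its values were seen, was -0.81 at 7 h on 3 of 3 slides with no overlap (limma unadjusted p = 0.0049, adjusted p = 0.270) and turned to 0.23 with normexp background correction. Of 12 measured substrates none was called; Cdk5r1, the p35 activator of Cdk5 that calpain cuts to p25 and also singled out after its values were seen, was -0.80 at 24 h (1.74-fold, limma unadjusted p = 0.0046, adjusted p = 0.269, no overlap). The study's own gene lists, drawn from these arrays, hold Casp8, Casp1, Casp14, Birc3 and Ripk3, so their directions here are not independent evidence. Casp14 was not well above background on any Ctrl array, and its difference at 24 h was not called (limma adjusted p = 0.499).

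Markers of the cell types that the cultures could hold differed between conditions as follows. At 24 h 6 of 13 neuronal markers were called lower and 0 higher (median -1.06), beside 2.38% of all named genes called lower, and their summed level ran from 745 to 1077 times the array median in Ctrl and from 339 to 754 in OGD. The slide of replicate 1 gave much of this, but not for every marker. Gad1 (called) differed by -2.89, -0.85 and 0.31 within the 3 slides and Snap25 (not called) by -3.45, -0.82 and 0.19. Of the other called markers, Slc17a6 was also above 0 on the slide of replicate 3 (0.09). Gad2, Syt1, Eno2 and Slc17a7 were lower on 3 of 3 slides, Gad2 by only -0.05 on that of replicate 3. Eno2 differed by -1.34, -0.36 and -1.48 and Slc17a7 by -2.78, -0.46 and -1.36. Without OGD 24h replicate 1 or Ctrl 24h replicate 1, 2 of the 13 were called lower (medians -0.48 and -0.84), and on the slides of replicates 2 and 3 alone 0 were (median -0.32). At 7 h 3 of the 13 were called lower, beside 2.07% of all named genes, with sums of 691 to 900 and 617 to 849. Stmn2 was saturated on 3 of 6 arrays at each time, so the sums are not exact. All 13 were well above background on every array, so the defining markers of the labelled cell type were present. Of 16 microglia markers, 1 was called at 7 h (Cx3cr1, 1.02 higher) and 0 at 24 h. Their summed level was 21.4 to 22.7 in Ctrl and 23.5 to 35.2 in OGD at 7 h, and 25.1 to 31.6 and 34.0 to 40.9 at 24 h, without overlap at either time. The brightest marker, Cx3cr1, weighs most in these sums, which do not describe every marker. At 7 h Aif1, Cd68, C1qa, P2ry12, Tmem119 and Fcgr2b were below 0 and the others above. At 24 h Itgam (-1.54) and Fcgr2b (-0.52) were below 0 and the others above. The median log2 fold change of the 16 was 0.31 at 7 h and 0.30 at 24 h. Of the defining markers, Ptprc was not well above background on any array and Itgam was so on 3 of 12. Of 9 astrocyte markers none was called, but Aldoc was saturated on all 6 arrays at 7 h and on 5 of 6 at 24 h and Slc1a3 on all 3 Ctrl arrays at 7 h, so differences of these genes are not exact and no sum is given. Of 10 oligodendrocyte lineage markers 1 was called lower at 7 h (Cspg4, -1.07) and 0 at 24 h, with sums of 219 to 229 in Ctrl and 115 to 256 in OGD at 7 h and 260 to 358 and 298 to 489 at 24 h. Of 13 vascular and fibroblast markers 1 was called lower at 7 h (Cldn5) and 1 higher at 24 h (Pdgfrb, 1.34). For Cldn5 at 7 h no OGD array was well above background, so its fold is given as a lower bound of 1.17. The 13 markers summed to 44.5 to 146 in Ctrl and 61.8 to 187 in OGD at 7 h. At 24 h they summed to 38.7 to 143 in Ctrl and 132 to 238 in OGD. The part of these markers in the differences of Casp1, Casp8, Capn1 and the listed genes was not tested.

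The genes most like each called member over the 12 arrays were sought among 10900 genes well above background on all arrays, by Pearson's r of the log2 values. These are descriptions without a test, since the points share groups and arrays. Casp1 was itself well above background on 6 of the 12 arrays and Casp8 on 8, so part of their values lies near the detection limit. For Casp1 they were Dnase2 (r = 0.92), which encodes a lysosomal DNase, Fuca1 (0.91), a lysosomal fucosidase, and Tap2 (0.90), a peptide transporter of antigen presentation. For Casp8 they were Tbxa2r (0.89), the thromboxane receptor, Scn11a (0.85), a sodium channel, and Asap1 (0.84). For Capn1 they were Rarres2 (0.96), which encodes chemerin, Enpp1 (0.96), an ectonucleotidase, and Srpx2 (0.96), a secreted protein; Srpx2 itself differed by 2.38 between OGD and Ctrl at 24 h.

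**Figure D4:**
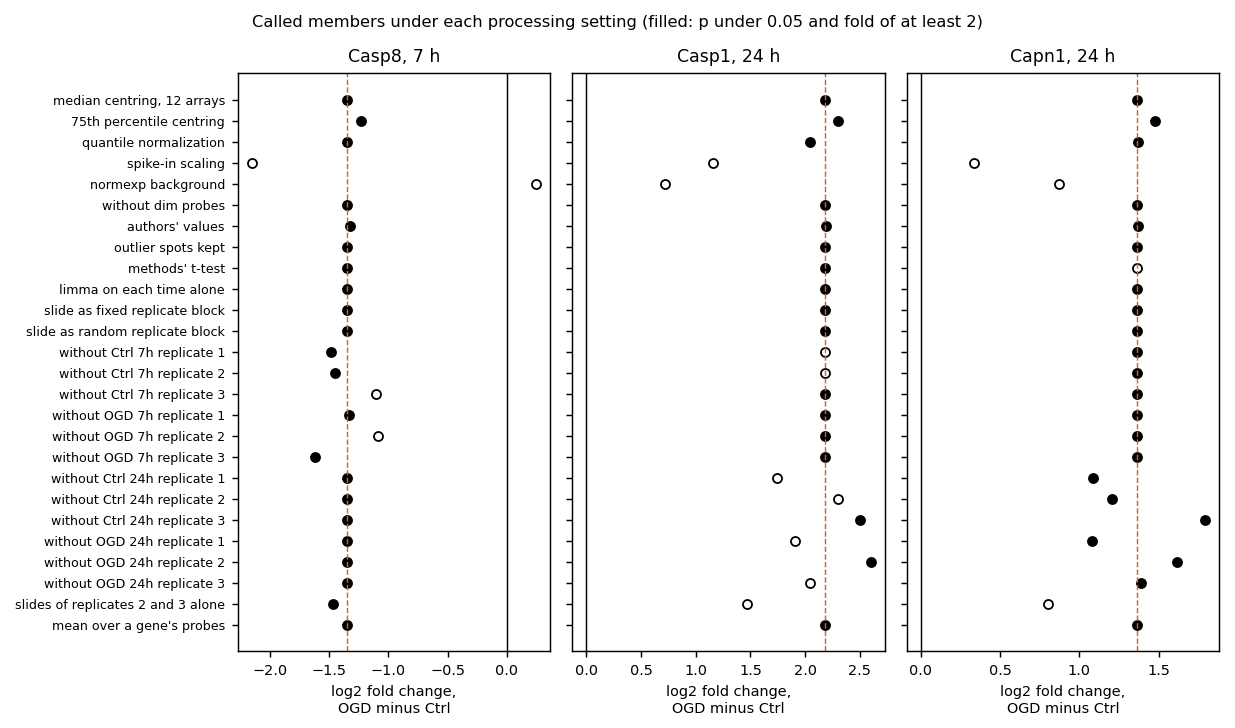
Log2 fold change of OGD against Ctrl (x axis) for the 3 called members under each processing setting (y axis), with the reported value as a dashed line. Filled circles have an unadjusted p under 0.05 and a fold of at least 2. Casp8 at 7 h crosses 0 with normexp background correction, and Casp1 at 24 h loses its call under 9 of 25 alternatives, Capn1 under 4.

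The calls were recomputed under 25 alternatives. Casp8 at 7 h kept its call and direction under 21, Capn1 at 24 h under 21 and Casp1 at 24 h under 16. These counts are no measure of robustness, because several alternatives could change little. Each of the 3 genes had 1 probe, so the mean over a gene's probes repeated the same values. Leaving out an array of the other time changed only the estimate of the spread. For Casp8 at 7 h the authors' values gave -1.32 and keeping outlier spots -1.35. Scaling to the single usable spike-in probe lowered every difference by 0.81 at 7 h and by 1.02 at 24 h, and with it none of the 3 was called. Any smaller positive difference turns negative through this shift alone, whatever the gene. The probe was also unstable. Its log2 signal minus the array median ran from 1.85 to 6.32 among the OGD 24h arrays, and the limma SE of the 3 differences was 1.12.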

How the data were processed

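Gene expression was measured in 12 RNA samples, 1 per array, on one-colour Agilent 4x44K rat arrays (200 ng of RNA, Cy3). The methods do not state whether same-numbered samples of different groups came from the same culture preparation. The deposited intensity of each spot came from Feature Extraction 10.5.1.1, which subtracts background and does not normalize between arrays; probes were designed on rn4. The authors also deposited log2 values, median-centred in BRB-ArrayTools per their methods, which equalled the log2 intensities plus 1 constant per array within 0.01 for 99.9% to 100.0% of probes. No depth exists for arrays, whose number limits the precision.

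Spots flagged as outliers were dropped and log2 intensities were averaged over the spots of each of 30367 probes, then the median of each array was subtracted; 70 of 364404 values were missing. Probes were named by unversioned RefSeq accession (18004 named, 12363 not), and no coordinates were converted between builds. Gene positions and promoters are those of RefSeq on GRCr8.

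Groups were compared with limma 3.58.1 (R 4.3.3) in 1 model of the 4 groups, two-sided, with Benjamini-Hochberg adjustment over all probes; it was tested on simulated data. A call needs an unadjusted p under 0.05 and a fold of at least 2, the thresholds of the methods. Where no array of a group was well above background, the fold is a lower bound that reflects the detection limit and not the spread between arrays.

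The members and lists were chosen with earlier results of these data known. The named genes are the 8 members, partners listed whatever their values (some are not reported here), the other listed genes called at either time and the 3 genes most correlated with each called member; others are marked as singled out. Same-numbered Ctrl and OGD arrays share a slide, and they may also share a culture preparation, which the methods do not state. The slide is not in the model because the methods name no block for the array test, and it was run as an alternative. Over all probes the correlation of the deviations of same-slide arrays exceeded 0.1 in 2 of 6 pairs only. That does not show that single genes are unpaired, and the p-values of Casp12 fell with the slide as a block. Alternatives were other scalings, background correction, filters, tests, blocks, probes and each array left out.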

Additional observations from a re-analysis of the deposited data

Results flagged for a closer look

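The response of Apaf1, the scaffold of the apoptosome, passed an unadjusted p under 0.05 in the test of the difference between the 2 recovery times, but not the correction over all probes, so a difference is not shown. The OGD effect at 24 h minus that at 7 h was -0.80 ± 0.28 (SE) on the log2 scale (limma unadjusted p = 0.0159, adjusted p = 0.99998), where 3.42% of all named genes had an unadjusted p under 0.05. Of 23 alternatives 3 no longer passed, which were spike-in scaling (-1.02, limma unadjusted p = 0.520), normexp background correction (-0.64, limma unadjusted p = 0.136) and the mean over the gene's probes (-0.45, limma unadjusted p = 0.115).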

How the results depend on the processing

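Under spike-in scaling, which rested on 1 probe of 10 and moved the median of all genes by -0.81 at 7 h and -1.02 at 24 h, and under normexp background correction, run on the median signal with an offset of 50, 0 members were called at both times. The methods' t-test called 1 member at 24 h and the slide as a fixed replicate block 2 at 7 h (Casp1 and Casp8), both without a change at the other time; the slide as a random replicate block changed no call. Over all probes, arrays that share a slide did not all deviate together, with correlations from -0.05 to 0.17, and single genes can differ from this. The slides of replicates 2 and 3 alone, a setting chosen after seeing the data, gave 0 calls at 24 h. Leaving out 1 array gave 1 call at 7 h each time (Casp1 in place of Casp8 without Ctrl 7h replicate 3 or OGD 7h replicate 2), 1 to 2 at 24 h and 0 to 2 interactions. An adjusted p under 0.05 was reached by 32 genes at 7 h without OGD 24h replicate 1 and by 0 or 1 gene under every other alternative. The cause was not tested. Calls over all genes were 43.1% higher ones at 7 h and 53.5% at 24 h, against 55.9% and 65.8% with centring on the 75th percentile (median shift 0.11 at both times) 15% and 2.24% with spike-in scaling and 60.4% and 17.4% with normexp; at 24 h they were 81.5% in the methods' t-test and 75.5% without OGD 24h replicate 1. The values that turned direction, as log2 fold changes, were as follows. Under spike-in scaling they were at 7 h Casp4 -0.37, Casp6 -0.77, Capn1 -0.48, Capn2 -0.73, Cast -0.77, Apaf1 -0.23 and Capn13 -0.32, and at 24 h Casp4 -0.90, Casp6 -0.49, Capn2 -0.68, Cast -0.63, Xiap -0.94, Pycard -0.69, Casp12 -0.12, Tnfrsf1a -0.51 and Fadd -0.25. With normexp they were at 7 h Casp4 -0.031, Casp6 -0.19, Casp8 0.25, Capn2 -0.48, Cast -0.45, Xiap 0.295, Pycard 0.37 and Capn5 0.23, and at 24 h Casp4 -0.17, Casp8 0.35 and Capn2 -0.081. At 24 h, centring on the 75th percentile gave Casp2 0.067 and Casp8 0.077, and quantile normalization gave Casp2 0.080. The slides of replicates 2 and 3 alone gave Casp2 0.012 at 7 h and 0.14 at 24 h. The mean over a gene's probes gave Casp2 0.034 and Xiap 0.091 at 7 h. With each array left out in turn, the ranges that crossed 0 were at 7 h Casp6 -0.091 to 0.19, Capn2 -0.022 to 0.19 and Cast -0.033 to 0.15, and at 24 h Casp2 -0.16 to 0.08, Casp4 -0.24 to 0.51, Casp8 -0.65 to 0.29, Xiap -0.031 to 0.22 and Pycard -0.062 to 0.57.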
